A study of Homo sapiens with 18 samples.

Results

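The 10 receptor tyrosine kinases described here are MET, MST1R, FGFR1, FGFR2, FGFR3, FGFR4, IGF1R, AXL, KIT and RET, read as transcript levels in 18 colorectal cancer (CRC) cell lines. They were taken by name from the 19774 genes that had at least 1 probe set annotated to a single gene symbol. Of the 40 probe sets of the 10 receptors, the one with the largest average over the lines stood for each gene, and the others are given beside it. The study concerns molecular subtypes of CRC in laboratory models, and each line was measured once, on 1 whole-transcriptome array hybridised with biotin-labelled total RNA. The labels call all lines CRC, whereas HUTU80 is generally listed as a line from a carcinoma of the duodenum. The labels give no subtype and no replicate cultures, so a value in a single line has no replicate error, and an SD below is the spread between lines. The only grouping in the labels is the growth medium. HUTU80, OUMS23, RKO, CAR1, HT55, CL40, SW48, LS180, SW1463 and SW948 (10 lines) grew in DMEM/F-12 with 15 mM HEPES. NCIH716, MDST8, HCT116, COLO320HSR, KM12, LS513, SNUC1 and RCM1 (8 lines) grew in RPMI-1640 with 25 mM HEPES and with added glucose and sodium pyruvate. Both media held fetal bovine serum, penicillin and streptomycin. Each array read the pooled RNA of a culture, so a lower level in every cell and fewer cells with the transcript cannot be told apart.

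Receptor tyrosine kinases span the cell membrane. In most of them a ligand outside the cell brings 2 receptor molecules together. The paired kinase domains then phosphorylate each other. Adaptor proteins bound to the phosphorylated tail pass the signal to the RAS-ERK and PI3K-AKT pathways. MET binds hepatocyte growth factor (HGF) and MST1R, also called RON, binds macrophage-stimulating protein (MST1); both sit on epithelial cells of the gut. FGFR1 to FGFR4 bind fibroblast growth factors, IGF1R binds insulin-like growth factors, AXL binds GAS6, KIT binds stem cell factor (KITLG), and RET binds ligands of the GDNF family together with a GFRA coreceptor. In the normal gut wall KIT marks mast cells and interstitial cells of Cajal, and RET acts in enteric neurons.

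Levels are deposited log2 intensities, on which a difference of 1 is a doubling of the signal. The lowest and highest of all probe sets were 2.31 and 13.71, and the arrays had medians of 3.65 to 3.69. A level of 3.83, the 95th percentile of 58 probe sets of 44 genes of other tissues, was taken as background. This limit is low, so the number of lines above a level of 5 is given too. By the first limit 11225 to 11657 genes were above background in a given line. The lines differed in tissue markers: all 11 markers of colonic epithelium were above 5 in CL40, HT55, LS513, RCM1, SNUC1, SW1463 and SW948, whereas RKO and HUTU80 had 3, COLO320HSR 2 and MDST8 1. HUTU80 and MDST8 had 7 and 8 of 13 mesenchymal markers above 5, and NCIH716 had 5 of 6 neuroendocrine markers above 5. No line had more than 1 of 7 leukocyte markers or 1 of 6 endothelial markers above 5. Their part in the receptor levels was not tested.

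For reference, the 250 bases upstream of transcription starts are printed for MET, KIT and FGFR2, each of which stood apart in a single line by at least 1 probe set. AXL did so by its dimmer probe set only. The line order of FGFR1 also differed between probe sets, but its window was not read. The sequences are those of RefSeq on GRCh38.p14, 5′ to 3′ on the strand of the gene, with GC boxes (GGGCGG, or CCGCCC on the other strand) in capitals. The MET window is chr7:116671946-116672195 on the plus strand and the KIT window chr4:54657707-54657956 on the plus strand. FGFR2 has 5 listed starts on the minus strand, of which the most upstream (chr10:121598445-121598694) and the most downstream (chr10:121531315-121531564, inside the gene) are shown.
MET: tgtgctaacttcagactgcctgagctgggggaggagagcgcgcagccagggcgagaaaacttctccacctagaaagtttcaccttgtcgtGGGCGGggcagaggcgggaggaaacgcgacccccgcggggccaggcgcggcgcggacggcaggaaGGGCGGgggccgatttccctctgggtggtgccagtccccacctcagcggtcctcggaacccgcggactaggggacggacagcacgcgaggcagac
KIT: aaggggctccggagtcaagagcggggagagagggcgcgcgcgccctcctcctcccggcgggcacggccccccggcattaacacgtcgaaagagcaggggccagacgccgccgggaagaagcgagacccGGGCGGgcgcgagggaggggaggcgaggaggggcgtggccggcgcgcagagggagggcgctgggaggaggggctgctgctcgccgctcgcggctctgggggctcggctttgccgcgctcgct
FGFR2 start 1: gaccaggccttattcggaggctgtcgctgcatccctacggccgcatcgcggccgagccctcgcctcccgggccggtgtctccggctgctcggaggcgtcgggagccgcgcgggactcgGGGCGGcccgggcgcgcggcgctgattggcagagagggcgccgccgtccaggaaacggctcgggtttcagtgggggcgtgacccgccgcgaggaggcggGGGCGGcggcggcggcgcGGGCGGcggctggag
FGFR2 start 5: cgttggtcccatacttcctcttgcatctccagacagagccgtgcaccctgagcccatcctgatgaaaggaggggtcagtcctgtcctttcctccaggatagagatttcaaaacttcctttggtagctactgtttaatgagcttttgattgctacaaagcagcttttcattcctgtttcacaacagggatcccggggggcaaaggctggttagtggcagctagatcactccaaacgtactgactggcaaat
The MET window held 2 GC boxes, 24 CpG and 68.4% G or C. That of KIT held 1 GC box, 34 CpG and 76.4% G or C. The upstream FGFR2 window held 3 GC boxes, 42 CpG and 78.4% G or C, against no GC box, 4 CpG and 49.2% at the internal start. Over 35097 promoter windows of the same length, the median was 58% G or C and 11 CpG, and 42.6% held a GC box. These counts describe the letters of the windows, and no value of the arrays bears on which start a line uses. RefSeq windows were matched for 9 of the receptors, that is all except FGFR1.

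Over the panel, the 10 receptors differed in how widely they were spread, from a range of 1.03 log2 units (FGFR1) to 7.66 (AXL). With the probe set of highest mean, 132 of the 180 receptor and line values were above background and 98 were above 5. IGF1R was above 5 in all 18 lines, MET in 17, FGFR4 in 15, FGFR3 in 14, MST1R in 11, FGFR2 in 9, KIT in 6, AXL in 5, FGFR1 in 3 and RET in none. The highest line exceeded the lowest by 3 log2 units or more for 8 of the 10 receptors, against 31.6% of the 15523 genes above background in at least 1 line. The exceptions were FGFR1 and RET. With the most variable probe set of each gene FGFR1 joined them, against 35.7% of genes. With the mean of all probe sets of a gene the count was 6 of 10, without FGFR4 and IGF1R, against 24.4% of genes. Low MET in HUTU80 and high FGFR2 in NCIH716 were known when the receptors were chosen. The counts are therefore descriptions and are not to be set against these shares. By its brightest probe set MET counts only through HUTU80, as the other lines lay between 9.01 and 11.02. The SD over lines was 2.87 for AXL, 2.49 for FGFR2, 1.80 for FGFR3, 1.79 for KIT, 1.59 for MET and 1.57 for MST1R. Smaller SDs were those of FGFR4 (1.11), IGF1R (0.90), RET (0.31) and FGFR1 (0.26), beside a median of 0.56 over the 15523 genes. By the brightest probe sets, the smallest sets of receptors above 5 were those of MDST8 (MET, IGF1R and AXL), RKO (MET, FGFR3, IGF1R and AXL) and HUTU80 (FGFR2, FGFR3, FGFR4 and IGF1R). The largest sets, 7 receptors each, were those of HCT116, RCM1, LS180 and CAR1. This order depended on the probe set. By the most variable probe sets LS513, COLO320HSR, NCIH716 and HUTU80 had 3 receptors above 5 and MDST8 and RKO 4, FGFR1 among them, while HCT116 had 7, RCM1, CAR1 and HT55 6 and LS180 5.

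**Figure D1:**
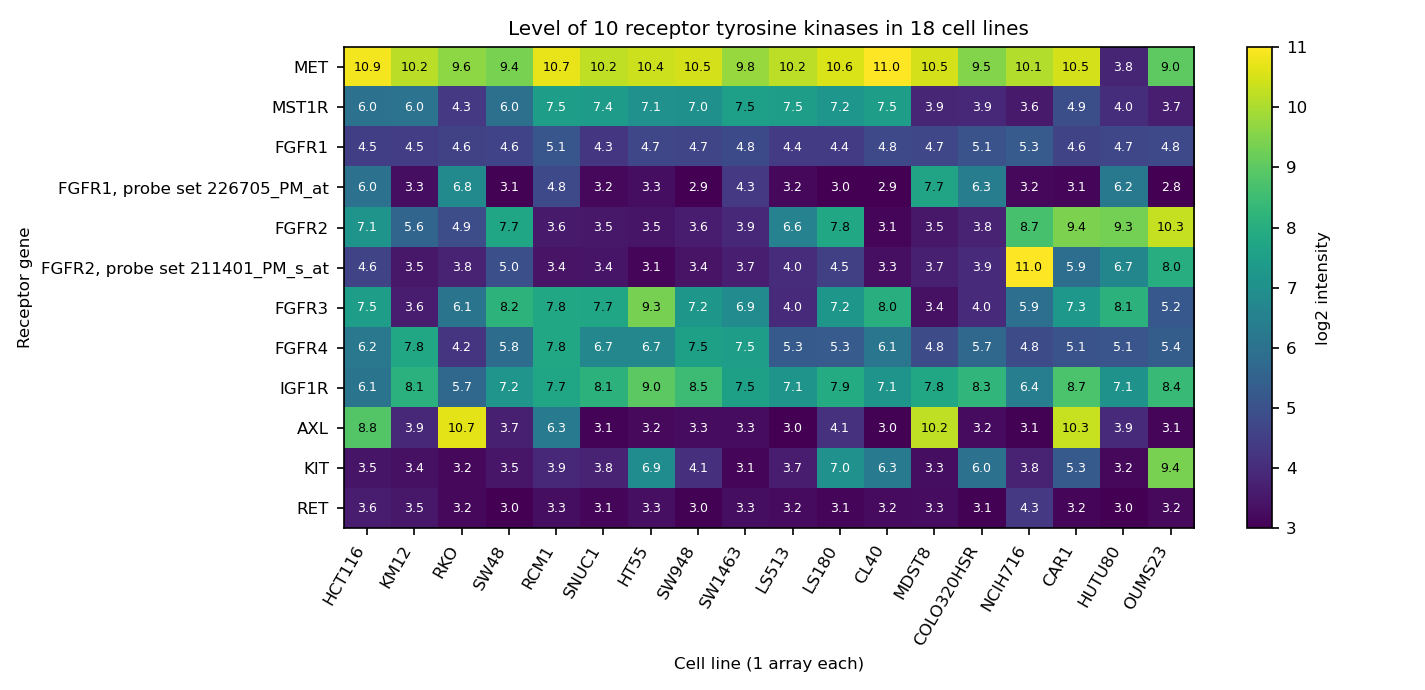
Log2 intensity of each receptor (rows) in each of the 18 lines (columns, 1 array each), with a second probe set added for FGFR1 and for FGFR2. MET is dark in HUTU80 alone, AXL is bright in 4 lines, and the added FGFR2 probe set is bright in NCIH716 at 11.03.

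MET, the HGF receptor, was high in every line except HUTU80. Its levels ran from 3.84 in HUTU80 over a median of 10.21 to 11.02 in CL40, and the second lowest line was OUMS23 at 9.01. HUTU80 thus lay 5.17 log2 units below every other line, at the background level, while the other 17 lines lay between 9.01 and 11.02. Without the highest and the lowest line the SD of MET fell from 1.59 to 0.52. The other 3 MET probe sets gave 3.55, 4.14 and 4.59 in HUTU80 against lowest values of 5.90, 6.32 and 6.48 elsewhere, each time in OUMS23, and correlated with the first at r = 0.92 to 0.94 over the 18 lines. HGF, the MET ligand, was 8.41 in RKO and at most 4.70 in the other lines, and RKO had MET at 9.63. CD44, a cell surface protein that acts as a MET coreceptor, was also lowest in HUTU80 (3.08), followed by OUMS23 (3.74) and RCM1 (6.34), against 12.40 in SNUC1. The correlation of MET with CD44 was r = 0.70 (rho = 0.40, n = 18), and r = -0.0030 without HUTU80 and OUMS23, so it rested on those lines. The genes most like MET over the panel were GNG12 (r = 0.93), SPATS2L (r = 0.91) and GALNT7 (r = 0.90). The most opposite were CAND2 (r = -0.96) and GPC3 (r = -0.93), both highest in HUTU80. Without HUTU80 and OUMS23 these 5 values were 0.41, 0.40, 0.55, -0.28 and -0.42. All such values are extremes picked from 12941 genes over 18 lines that each contribute 1 array, and are given as descriptions. For the 7 receptors other than MET, FGFR1 and RET, the 31 such genes without clusters had r of 0.73 to 0.95 in size, and 0.52 to 0.95 without the 2 lines farthest from the receptor's median.

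MST1R, the MST1 receptor, split the panel more evenly. It was between 7.02 and 7.51 in SW1463, RCM1, CL40, LS513, SNUC1, LS180, HT55 and SW948, and between 5.96 and 6.04 in KM12, HCT116 and SW48. The lowest levels were 4.93 in CAR1, 4.31 in RKO, 4.04 in HUTU80, 3.90 in COLO320HSR, 3.86 in MDST8, 3.68 in OUMS23 and 3.58 in NCIH716, with a panel median of 6.01. The 7 lines with all 11 epithelial markers above 5 were among the 8 highest for MST1R. CDH1, the gene of E-cadherin, fell into separate clusters of lines, so no pooled correlation is given. OUMS23 and CAR1 had low MST1R beside CDH1 levels of 11.57 and 9.57. MST1 itself was at most 5.27, in HCT116. Over the panel MST1R was most similar to KCNQ1, a potassium channel subunit (r = 0.95, rho = 0.89), and ACSL5, an acyl-CoA synthetase (r = 0.95, rho = 0.86), with DENND2D, whose levels formed clusters. The most opposite were POGLUT2 (r = -0.93) and SOAT1, which esterifies cholesterol (r = -0.90). MET and MST1R, relatives in 1 receptor family, correlated at r = 0.43 (0.38 without HUTU80 and OUMS23).

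AXL, a receptor of the TAM family often described in mesenchymal and drug-tolerant cells, was high in few lines. It was 10.67 in RKO, 10.32 in CAR1, 10.24 in MDST8, 8.85 in HCT116 and 6.30 in RCM1. The other 13 lines had at most 4.14 (LS180), and the panel median was 3.48. The widest gap, from HCT116 to RCM1, fell just short of the limit for separate clusters, a gap larger than 0.333 of the range that leaves 3 or more lines on either side. A second AXL probe set gave 7.66 in RKO, 5.32 in CAR1 and 4.73 in MDST8, the same order of the highest lines but with RKO 2.34 above the next (r = 0.84 between the probe sets). GAS6, the AXL ligand, was above 5 in 16 lines and did not follow AXL (r = 0.07, rho = -0.01). It was 9.86 in LS513, where AXL was 3.01, and 6.26 in RKO. VIM and ZEB1, mesenchymal genes, formed clusters that crossed the AXL levels: ZEB1 was 10.66 in RKO but 9.43 in NCIH716, 9.12 in HUTU80 and 8.77 in COLO320HSR, where AXL was 3.06, 3.95 and 3.23. AXL was most similar to EVA1B (r = 0.91) and DRAP1, a transcriptional corepressor (r = 0.88), with KRTAP2-3, whose levels formed clusters. The most opposite were FAM117B (r = -0.88) and LRP6, a WNT coreceptor (r = -0.84).

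The 4 FGF receptors had different lines at the top. FGFR1 by its brightest probe set (215404_PM_x_at) was nearly flat, between 4.27 in SNUC1 and 5.30 in NCIH716 with a median of 4.69. The FGFR1 probe set with the largest SD (226705_PM_at) ran from 2.85 to 7.68. It was 7.68 in MDST8, 6.84 in RKO, 6.35 in COLO320HSR, 6.25 in HUTU80 and 6.02 in HCT116. RCM1 followed at 4.78 and SW1463 at 4.33, and the other 11 lines were at or under 3.31, below background. Both probe sets correlated at only r = 0.13 (n = 18). The second had r = 0.97, 0.93, 0.87 and 0.75 with 4 further FGFR1 probe sets, and r = 0.07 with the last, which was above background in no line. Over 3727 genes whose brightest and most variable probe sets differ and whose second one exceeds 5, the median of this r was 0.85, and 7.16% had an r under 0.2. The line order of FGFR1 therefore depended on the probe set, and in 4 of the 7 MDST8 and RKO were the highest lines. With 226705_PM_at the genes most like FGFR1 were PRAME (r = 0.88), LRRC8C (r = 0.84) and PFDN2 (r = 0.84). With 215404_PM_x_at they were SPN (r = 0.74), TMEM178B (r = 0.73) and SLC25A16 (r = 0.72), values that fell to 0.41, 0.38 and 0.57 without NCIH716 and RCM1. With the latter the most opposite were ZNG1B (r = -0.81) and KIFC2 (r = -0.80).

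FGFR2, which binds FGFs of the mesenchyme in its epithelial splice form, varied most among the FGF receptors. With the brightest probe set (203638_PM_s_at) it was 10.30 in OUMS23, 9.41 in CAR1, 9.32 in HUTU80 and 8.68 in NCIH716. LS180 (7.77), SW48 (7.73), HCT116 (7.13), LS513 (6.56) and KM12 (5.61) followed, and the lowest level was 3.10 in CL40, with a median of 5.25. NCIH716 was thus 4th, 1.62 below OUMS23, and it was 4th in 2 further probe sets that follow the first (r = 0.99 and 0.96). Read by 4 other FGFR2 probe sets, NCIH716 was the highest line by 2 log2 units or more. With 211401_PM_s_at it was 11.03, followed by OUMS23 at 7.97, HUTU80 at 6.68 and CAR1 at 5.90, and with 208234_PM_x_at 10.68, followed by 7.20 in OUMS23. With 208225_PM_at it was 6.85 and with 240913_PM_at 6.06, where the next lines had 3.71 and 3.85. So NCIH716 minus OUMS23 was +3.06 by 211401_PM_s_at and -1.62 by 203638_PM_s_at, a reversal of order between probe sets of 1 gene. Of the remaining FGFR2 probe sets, 3 were above 5 in no line and 208229_PM_at ran between 4.99 and 6.43 with NCIH716 at rank 15. Among 9540 genes above background with at least 1 further probe set, 0.734% had another probe set that was high in a single line other than the line ranked first by the brightest. That share is no measure of chance for FGFR2, which has 11 probe sets where many genes have fewer. Its high level in NCIH716 was also known when the receptors were chosen, so the reversal is a description. The sequence positions that these probe sets read were not used here. The splicing factors ESRP1 and ESRP2, which promote the epithelial FGFR2 splice form, were at 3.31 and 3.37 in NCIH716, at 3.55 and 4.55 in HUTU80, and at 9.89 and 8.23 in OUMS23. Among the 4 lines with the highest FGFR2, 2 thus had both factors under 5, and the part of splicing in the probe set difference was not tested. Genes similar to FGFR2 by its brightest probe set reached no more than r = 0.77 (MTX1 and VASN) and 0.76 (ZNF362), and the most opposite were PRDM4 (r = -0.79) and TSPAN3 (r = -0.78).

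**Figure D2:**
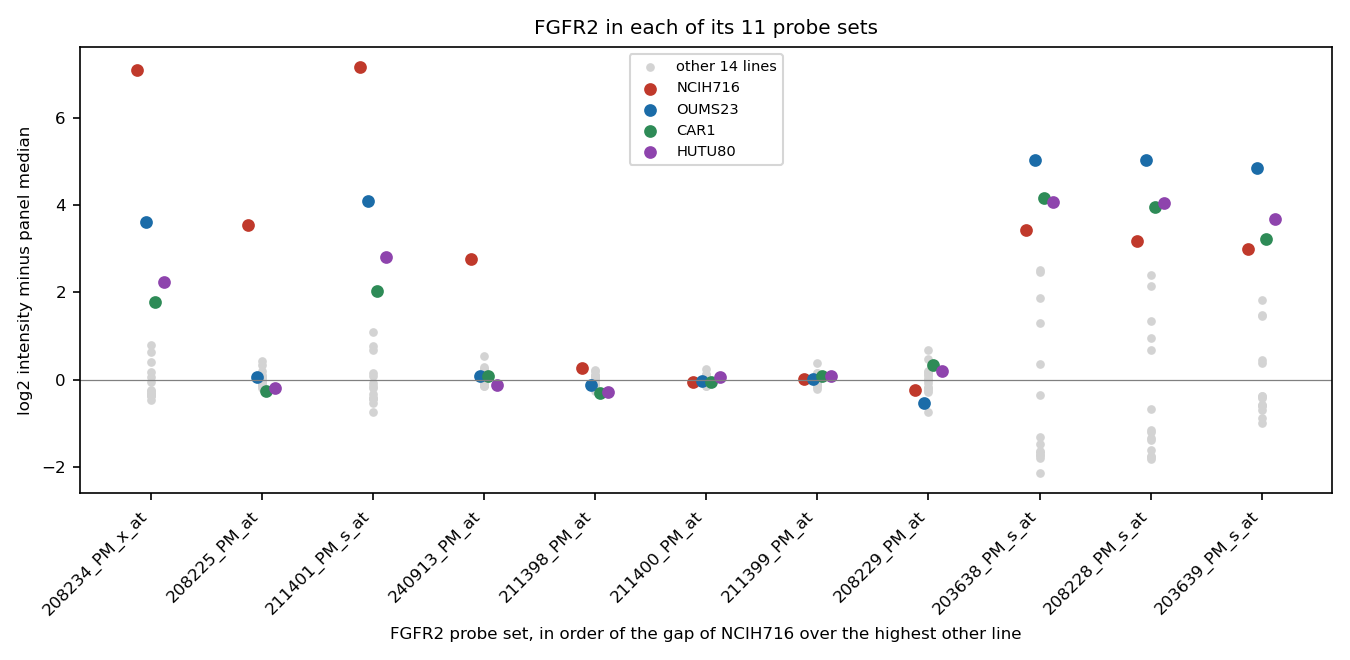
FGFR2 level minus the panel median (log2 units, y axis) in the 18 lines for each of its 11 probe sets (x axis), with 4 lines coloured and the other 14 in grey. NCIH716 (red) is highest in the 4 probe sets on the left, by 2.21 to 3.48, and 4th in the 3 on the right, where OUMS23 (blue) is highest.

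By their brightest probe sets, FGFR3 and FGFR4 were above 5 in most lines. FGFR3 ran from 3.37 in MDST8 over a median of 7.25 to 9.35 in HT55, which lay 1.19 above SW48 (8.16) and HUTU80 (8.15). It was low in 4 lines: LS513 and COLO320HSR (3.96 each), KM12 (3.65) and MDST8. The second FGFR3 probe set was dim, at most 4.74, also in HT55 (r = 0.72). FGFR4 ran from 4.21 in RKO over a median of 5.75 to 7.78 in RCM1, with KM12 at 7.76, SW948 at 7.53 and SW1463 at 7.47. KM12 thus combined one of the highest FGFR4 levels with one of the lowest FGFR3 levels, and over all lines both genes had r = 0.23. The other FGFR4 probe sets were dimmer. With 211237_PM_s_at (r = 0.92 with the brightest) 7 lines were above 5. KM12 was highest at 6.88 and COLO320HSR lowest at 3.15, where the brightest gave 5.68. With 1554962_PM_a_at (r = 0.95) 4 lines were above 5, and with 1554961_PM_at (r = 0.36) no line was. KLB, the coreceptor with which FGFR4 binds FGF19, was 8.50 in NCIH716 and at most 3.40 elsewhere, and FGFR4 in NCIH716 was 4.84. FGF19 was 7.17 in HCT116, 5.75 in RCM1 and 5.59 in SW1463 and under 5 in the other 15 lines (r = 0.43 with FGFR4). The genes most like FGFR3 were FBRS (r = 0.79) and RHBDD1 (r = 0.78), with CXXC5, whose levels formed clusters, and the most opposite NTPCR (r = -0.77) and ZNF850 (r = -0.73). For FGFR4 they were KCNK17 (r = 0.80) and BTF3P13 (r = 0.79), both dim in every line (maximum 4.16 and 4.57), with KCNE3, whose levels formed clusters, and the most opposite BBS4 and PHTF2 (r = -0.76 each).

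IGF1R, the receptor of insulin-like growth factors, was the only one of the 10 above 5 in all lines. It ran from 5.71 in RKO and 6.07 in HCT116 over a median of 7.74 to 8.72 in CAR1 and 8.98 in HT55. The levels formed an even series between these ends, and without replicates no order between neighbouring lines can be read. The most variable IGF1R probe set (203628_PM_at, r = 0.74) put CAR1 first at 7.62, 1.66 above HT55. HCT116 and RKO, at 2.70 and 2.71, were among 8 lines under background there, whose order carries no meaning. With 203627_PM_at (r = 0.73), above background in all 18 lines, CAR1 (7.88) was followed by MDST8 (6.90). HCT116 (3.85) and LS513 (4.47) were lowest by it, and RKO was 4.75. IGF1 was at most 4.08 in any line. IGF2 had no probe set annotated to it alone and is not reported. IRS1, an adaptor of IGF1R, was highest in HUTU80 (8.99) and lowest in RKO (3.83), with r = -0.19 to IGF1R. IGFBP3 and IGFBP2, which bind IGFs outside the cell, were spread widely: IGFBP3 was 12.89 in CAR1 and 10.61 in KM12 against 3.35 in COLO320HSR, and IGFBP2 11.21 in NCIH716 against 2.88 in MDST8. The genes most like IGF1R were COA5 (r = 0.79), RNF13 (r = 0.78) and DBH-AS1 (r = 0.83), a dim transcript at most 4.02. The most opposite were DNAAF3 and TOR1AIP2 (r = -0.78 each).

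KIT, the stem cell factor receptor, was high in OUMS23 alone and intermediate in 5 lines. It was 9.39 in OUMS23, then 7.05 in LS180, 6.90 in HT55, 6.25 in CL40, 6.03 in COLO320HSR and 5.26 in CAR1. The other 12 lines were at or under 4.08 (SW948), and the median was 3.78, under background. OUMS23 lay 2.34 above the next line. KITLG, the KIT ligand, was above 5 in 17 lines, with 12.15 in HCT116, 12.04 in SW48 and 11.77 in HUTU80, and it was lowest in OUMS23 at 3.35, where the next lowest line was RKO at 6.66. The line with the highest KIT therefore had the lowest KITLG, and the correlation over the panel was r = -0.51 (rho = -0.12), or -0.21 without OUMS23 and LS180. Of the markers of the normal KIT-positive cells, TPSAB1, a mast cell tryptase, was at most 3.86 in any line. ANO1, a chloride channel of interstitial cells of Cajal, was 3.58 in OUMS23 and 8.51 in LS180, and HDC, a mast cell enzyme, was 8.68 in COLO320HSR and at most 3.56 elsewhere. In COLO320HSR ETV1 was 8.25, whereas the other listed markers of these cells, ANO1 (3.76), TPSAB1 (3.46), CD34 (3.36) and CPA3 (2.97), were under background. ETV1 was also high, from 8.02 to 10.81, in HCT116, HUTU80, MDST8 and NCIH716, where KIT was under background. In LS180 ETV1 was 4.35, and the listed markers other than ANO1 and ETV1, namely HDC, TPSAB1, CD34 and CPA3, were under background. Most similar to KIT were STS, a steroid sulfatase (r = 0.83), ARL15 (r = 0.81) and FGD3 (r = 0.80), all highest in OUMS23. The most opposite were ZNF18 (r = -0.89) and TGFB1 (r = -0.78).

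RET was at background in 17 lines, at most 3.63, and reached 4.34 in NCIH716. The other 2 RET probe sets were under background in every line, at most 3.66 and 3.50, each time in NCIH716. GFRA1, GFRA2 and GFRA3, the coreceptors, were at most 3.44, 3.86 and 3.87 in any line, so no line had RET or these coreceptors above 5. RET correlated with CHGA, a neuroendocrine granin, at r = 0.84 (rho = 0.05), and at r = -0.13 without NCIH716 and HCT116.

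Single-line highs and lows were read by 1 rule: the highest line had to exceed the second highest, or the lowest to fall short of the second lowest, by 2 log2 units. By the brightest probe set this held for 2 of the 10 receptors, KIT as a high in OUMS23 and MET as a low in HUTU80. Of all 15523 genes, 819 (5.28%) were highest by this margin in 1 line and 214 (1.38%) lowest. The MET gap was the 10th largest of the 214. MET in HUTU80 was known when the receptors were chosen, so its call and rank are descriptions and are not to be set against these shares. The most variable probe set of each gene gave the same 2 receptors, against 6.06% of genes for highs and 1.43% for lows. For MET this is the same probe set and KIT has only 1, so the agreement was fixed beforehand. The other MET probe sets also put HUTU80 lowest, but with 213807_PM_x_at the gap was 1.90, short of the limit. With every receptor probe set read on its own, the lines were MET in HUTU80, KIT in OUMS23, FGFR2 in NCIH716 and AXL in RKO. Among 30603 single-gene probe sets, 4.64% were highest and 1.04% lowest in 1 line. These shares count probe sets, whereas the receptors are named by gene with any of their 40 probe sets, so they are not like for like. FGFR2 alone gave 4 such highs among its 11 probe sets, and its level in NCIH716 was known beforehand. Over all genes OUMS23 had 113 such highs and 44 lows, HUTU80 94 and 37, NCIH716 148 and 14, and RKO 24 and 9. The other 14 lines had 1 to 120 highs and 1 to 32 lows. With a gap of 3 log2 units the 1 remaining call was MET in HUTU80, and with a gap of 1 FGFR3 in HT55 was added.

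The genes beside these receptors on the chromosome were read in the same lines, 10 measured genes on each side in the order of GRCh38.p14. Around MET (chromosome 7, 116672196 to 116798377), HUTU80 was 1 log2 unit or more below the panel median at 4 of the 20 neighbours and above it at 2. Those below were CAV2, a caveolar protein (-4.06), TES, a focal adhesion protein (-3.63), ST7 (-1.34) and CFTR, the chloride channel of cystic fibrosis (-1.07). Those above, MDFIC (3.79) and FOXP2 (3.30), lie farther upstream, beyond TES and TFEC. TES was 6.14 in HUTU80 against at least 6.91 in the other lines, and ST7 5.65 against at least 6.12, whereas CAV2 was lower in 3 other lines. Over the 12 neighbours above background in at least 1 line, the median deviation of HUTU80 was -0.68, the lowest of the 18 lines, the others lying between -0.55 and 0.68. HUTU80 was the lowest line at 2 of these 12 neighbours, and another line was lowest at 3. Around FGFR2 (chromosome 10, 121478330 to 121598458), no neighbour was 1 log2 unit or more above the panel median in NCIH716. BAG3 (-1.17), INPP5F (-1.13), TACC2 (-1.86) and PLEKHA1 (-1.01) lay below it. Around KIT (chromosome 4, 54657957 to 54740715), no neighbour was higher by that margin in OUMS23, including the receptor genes PDGFRA (3.51) and KDR (2.99), and NMU, a neuropeptide gene, lay below (-5.63). By the median deviation of detected neighbours, NCIH716 around FGFR2 (-0.19) ranked 3 from the lowest line, and OUMS23 around KIT (0.07) ranked 12.

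**Figure D3:**
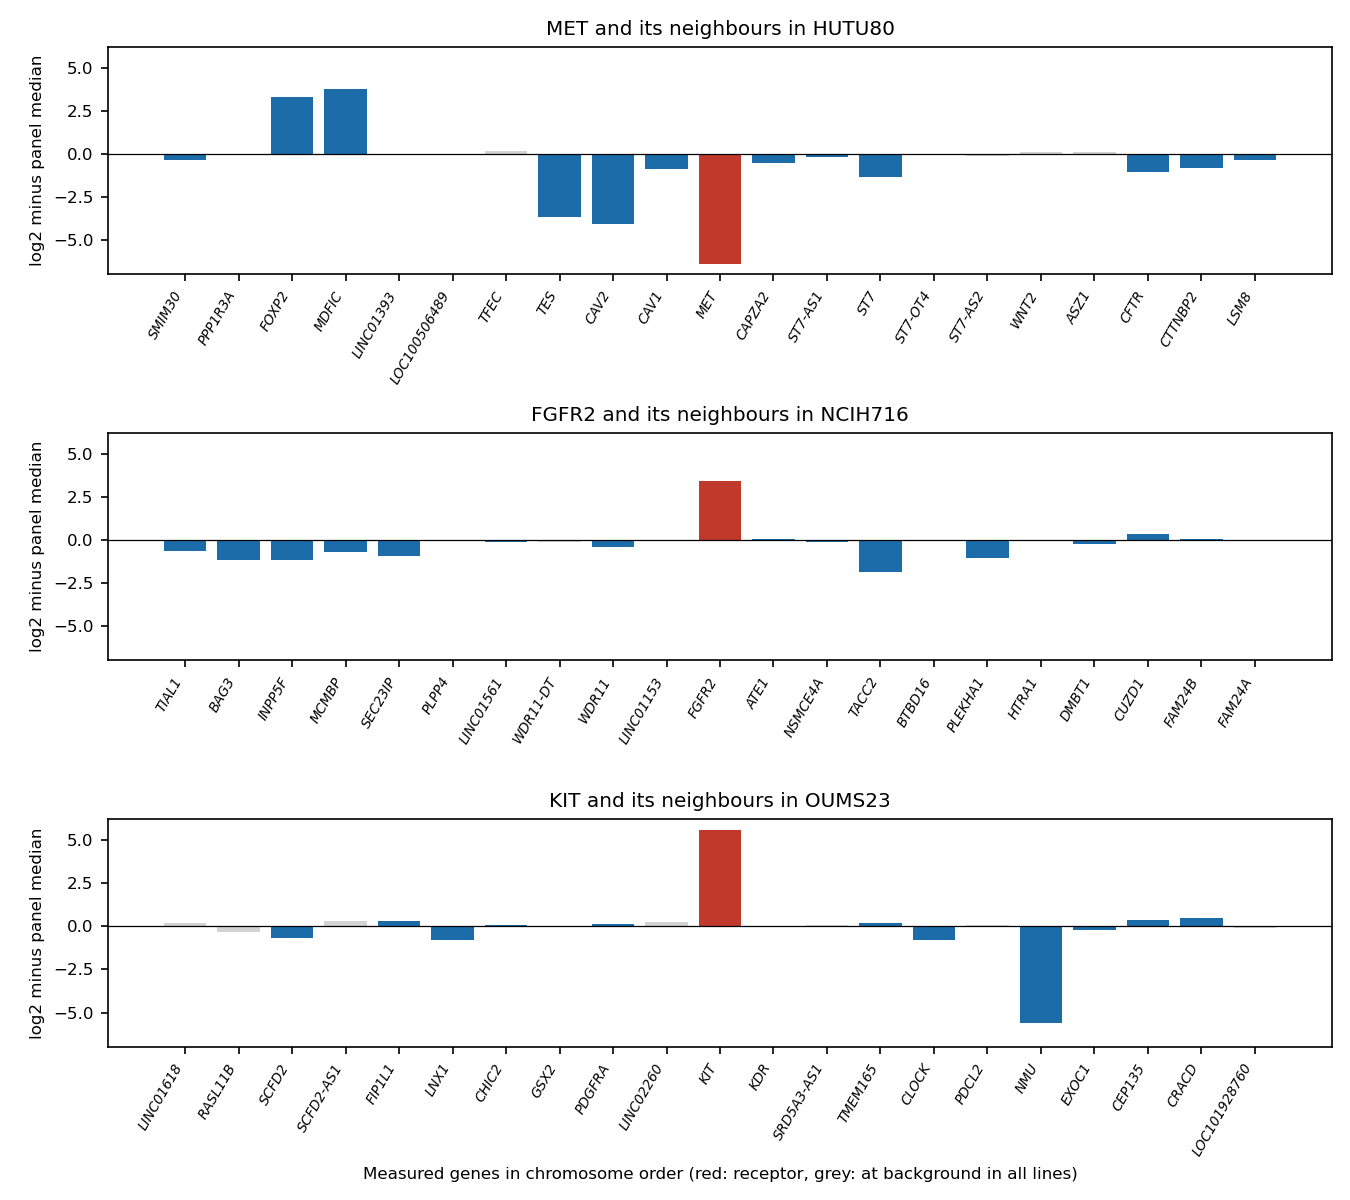
Level minus the panel median (log2 units, y axis) of a receptor (red) and its 10 measured neighbours on each side in chromosome order (x axis), for MET in HUTU80, FGFR2 in NCIH716 and KIT in OUMS23; grey bars are genes at background in all lines. TES and CAV2 beside MET lie at -3.63 and -4.06, and no neighbour of FGFR2 or KIT lies 1 or more above the median.

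The other genes of the pathway were read by list. Of 29 measured ligands 15 were above 5 in at least 1 line, of 26 coreceptors and ligand-processing genes 19, of 17 adaptors 15, and all 15 negative regulators and all 10 ERK target factors. Over all 19774 genes the share above 5 in at least 1 line was 64.9%. Of the ligands GDF15, FGF20 and KITLG had the largest SDs. FGF20 was 11.43 in HUTU80 and at most 6.19 elsewhere, and FGF10, a ligand of epithelial FGFR2 chosen here after its values were seen, was 8.87 in HUTU80 and at most 3.71 elsewhere. HUTU80 thus had FGFR2 at 9.32 and FGFR3 at 8.15 beside FGF10 and FGF20. The FGFR2 splice form in HUTU80 was not read, and whether these ligands act on its receptors was not tested. GDF15, which signals through RET with the coreceptor GFRAL, was 12.20 in LS513 and 2.94 in COLO320HSR. SPINT2, which inhibits the proteases that activate HGF, was at most 4.44 in MDST8, COLO320HSR and NCIH716, 5.91 in RKO and above 9 in the other 14 lines. Of the adaptors GRB10 was 9.90 in OUMS23 and 3.48 in HUTU80, and GRB14 9.38 in COLO320HSR. DUSP6, a phosphatase induced by ERK signalling, was highest in HUTU80 (12.17) and lowest in OUMS23 (3.74), the lines with the lowest and second lowest MET, both with FGFR2 above 9. The other negative regulators of largest SD did not share both extremes. SOCS2, an inhibitor of cytokine signalling, was 9.57 in HUTU80 and 8.41 in OUMS23, and LRIG1, which lowers ERBB receptor levels, was 3.89 and 3.27. Of the ERK target factors DUSP4, a phosphatase, was 4.61 in HUTU80 and 5.64 in OUMS23, with its highest level in SW48 (11.22). ETV1, a transcription factor, was 9.12 and 3.99 in these lines and highest in NCIH716 (10.81), and PHLDA1 was 6.49 and 4.28 and highest in MDST8 (11.94). Of the other receptor tyrosine kinases ERBB3 was above 5 in 14 lines, EPHA7 was 11.22 in HUTU80, and ERBB4 was 10.12 in NCIH716 and 8.94 in HUTU80 and at most 3.27 elsewhere. Of 35 listed receptor and partner pairs, 21 had no clusters, and in 4 of those r was 0.5 or more in size: MET with CD44 and with PLXNB1 (r = 0.50, and 0.35 without HUTU80 and OUMS23), KIT with KITLG, and RET with CHGA.

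The media were compared with limma, with the growth medium as the only term. None of the 10 receptors differed at an adjusted p under 0.05, and none of the 15523 genes did (0%); 409 genes (2.63%) had an unadjusted p under 0.05, and the smallest adjusted p was 0.999. FGFR3 was the 1 receptor among the 409. It was 7.36 ± 1.17 (SD, n = 10) in DMEM/F-12, with a lowest value of 5.19, a median of 7.27 and a highest of 9.35. In RPMI-1640 it was 5.48 ± 1.96 (SD, n = 8), from 3.37 over a median of 4.93 to 7.79, and the groups overlapped. The difference of 1.88 log2 units (95% interval 0.40 to 3.36) had a limma p of 0.0154, an adjusted p of 0.999 and a two-sided exact permutation p of 0.0258, so it did not pass the correction over all genes. The 4 lines with FGFR3 under 4 (KM12, LS513, COLO320HSR and MDST8) all grew in RPMI-1640. The remaining intervals all included 0. For KIT the difference was 1.28 (-0.33 to 2.90), for FGFR2 1.05 (-1.30 to 3.40), for MET -0.83 (-2.30 to 0.65; the difference was -0.20 without HUTU80) and for AXL -0.34 (-3.11 to 2.42), each as DMEM/F-12 minus RPMI-1640. Among the 10 receptors 5 were higher and 5 lower in DMEM/F-12, with a median difference of 0.07 beside -0.0020 over all genes. RET differed by -0.28 (exact permutation p = 0.0399, limma adjusted p = 0.999), with levels at background in all lines but NCIH716. No ligand, coreceptor, adaptor or negative regulator was called in either direction by limma, and none had an unadjusted p under 0.05; of the ERK target factors and of the other receptor tyrosine kinases 1 each did. The media hold different lines, so medium and line cannot be told apart.

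**Figure D4:**
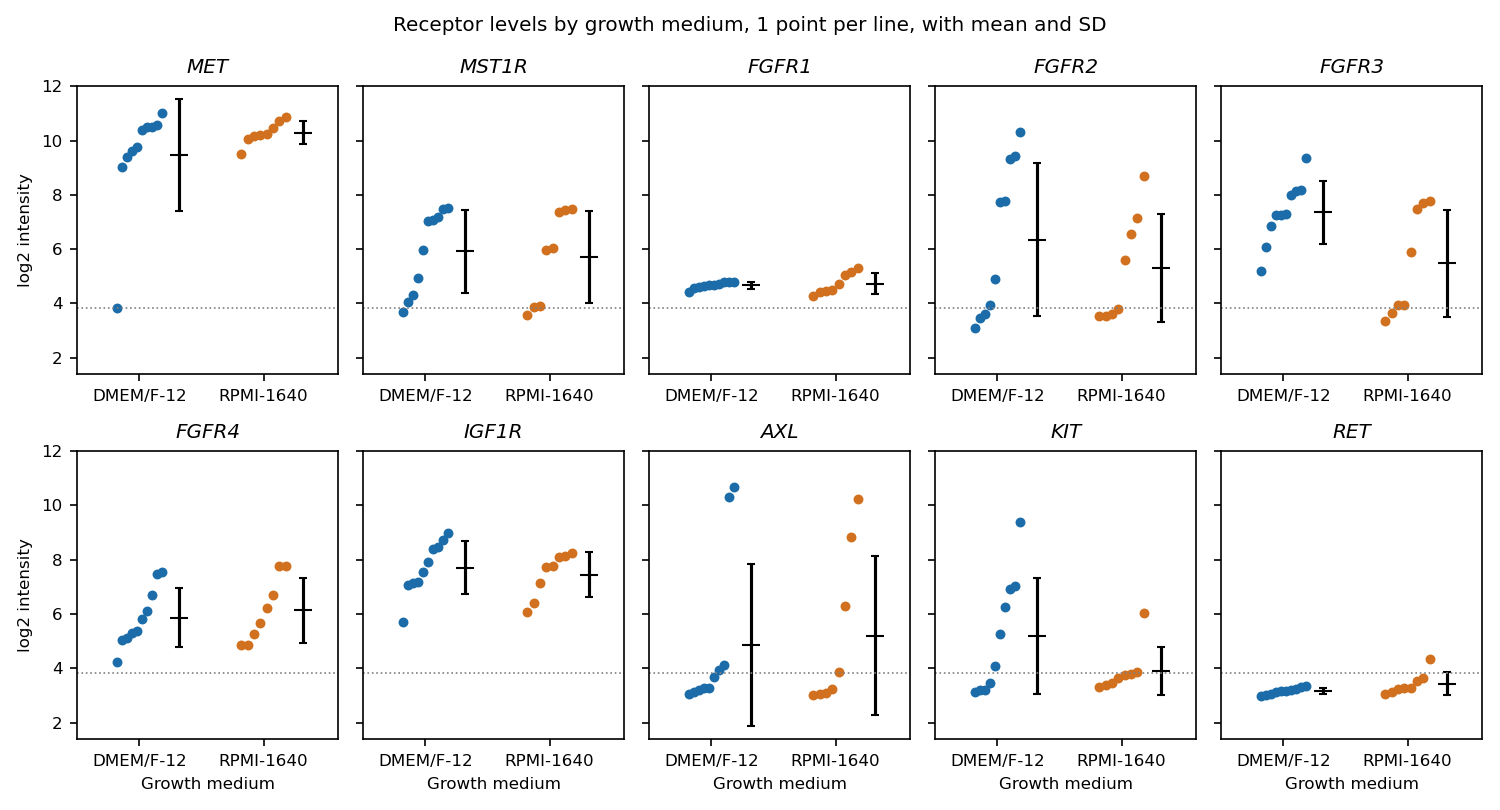
Log2 intensity (y axis) of each receptor in the 10 lines grown in DMEM/F-12 (blue) and the 8 in RPMI-1640 (orange), 1 point per line, with the mean and SD beside each group and the background level as a dotted line. MET in HUTU80 lies at 3.84 below all other points, and 4 RPMI-1640 lines are near background for FGFR3.

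**Figure D5:**
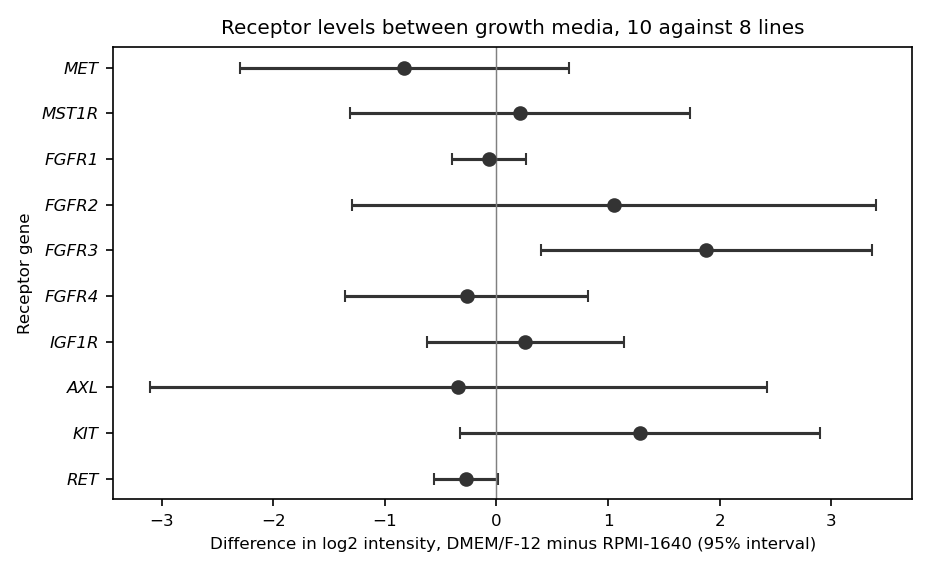
Mean difference in log2 intensity (x axis, DMEM/F-12 minus RPMI-1640) with its 95% interval from limma for each receptor (y axis), 10 against 8 lines. The FGFR3 interval, 0.40 to 3.36, is the only one of the 10 that leaves out 0.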

How the data were processed

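RNA was measured on 18 arrays, 1 per cell line, grouped by growth medium as the labels give it. What the authors deposited is a table of log2 intensities, for which the submitters' processing notes name RMA and the affy package. Versions and genome build were not given in the sources used here. The values were not normalized further. RMA compresses dim signals, which understates differences near background, and precision is limited by there being 1 array per line.

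Of 54613 probe sets, 40914 had 1 gene symbol in the array annotation, 864 several and 12835 none; 40858 matched a RefSeq gene of GRCh38.p14, used for names and gene order. The probe set of largest average stood for each gene. Background was set at 3.83, below which 95 percent of the values lay for 58 probe sets of 44 genes out of 50 listed as specific to other tissues. The media were compared with limma 3.58.1 (lmFit, eBayes with trend, R 4.3.3) on the 15523 genes above background in at least 1 line, with Benjamini-Hochberg adjustment, and per receptor with a two-sided exact permutation test. P-values set the difference between the media against the spread between lines. With 1 array per line that spread also holds culture and array error. The fit was tested on simulated data with 50 genes shifted by each of 4 sizes: it called 42 percent of those shifted by 1 log2 unit, 82 percent at 2 and 94 percent at 3 and at 4. These percentages were not split by SD, and the median SD of the 15523 genes was 0.56. Recovery at the SDs of the receptors, such as 1.80 for FGFR3 and 2.87 for AXL, was not tested. Correlations are Pearson r over 18 lines, with no p, and none is pooled where levels form clusters.

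The receptors, gene lists, pairs and rules were chosen with earlier results of these data known. Named were all receptors, 3 genes of each pathway list by SD, main ligands and coreceptors, the 3 most and 2 least alike genes per receptor, and neighbours 1 log2 unit from the panel median. CD44, PLXNB1, CDH1, CHGA, FGF19, TPSAB1, FGF10, VIM, ZEB1, ANO1, HDC, CPA3, CD34, PDGFRA and KDR fall outside that rule and were named after their values were seen. Alternatives were other probe set rules, normalization, filters, background levels and gaps, and leaving out single lines.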

Additional observations from a re-analysis of the deposited data

Results flagged for a closer look

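In 3 of 20 groups tested, 10 receptors in each of the media, the highest or lowest line lay farther from the nearest other line than Dixon's critical share of the group's range allows; chance gives about 1 in 20. MET was 3.84 in HUTU80, with the nearest DMEM/F-12 line at 9.01, a gap of 0.72 of the range (critical share 0.466 for 10 lines). This value was known when the receptors were chosen, so it is a description and is not to be set against the chance rate. KIT was 6.03 in COLO320HSR, with the nearest RPMI-1640 line at 3.88 (gap 0.79 of the range, critical share 0.526 for 8 lines). The other RPMI-1640 lines lay between 3.30 and 3.88, at or near background, so the chance rate need not hold and the flag is a description. In DMEM/F-12, OUMS23, LS180, HT55 and CL40 had higher KIT than COLO320HSR. RET was 4.34 in NCIH716, with the nearest RPMI-1640 line at 3.63 (gap 0.55 of the range), a level close to the background of 3.83. The same limit on the chance rate holds for RET.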

How the results depend on the processing

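The count of genes called between the media was 0 under all 8 alternatives fitted with limma, with 306 to 648 genes at an unadjusted p under 0.05, and no receptor passed. Without NCIH716 the small medium differences of MST1R (0.21) and FGFR1 (-0.07) changed sign, to -0.0966 and 0.0131; neither passed the test in any setting. The exact permutation test gave unadjusted p = 0.0258 for FGFR3 and 0.0399 for RET, where limma's adjusted p was 0.999. The FGFR3 difference of 1.88 was 1.62 without KM12, 1.67 without LS513, 1.66 without HT55 and 2.12 without OUMS23, lines chosen after the data were seen. With the mean of both FGFR3 probe sets it was 1.04; the second is dim. The KIT difference of 1.28 fell to 0.82 without OUMS23. The MET difference of -0.83 was -0.20 without HUTU80 and -0.45 with the mean of all probe sets. The FGFR2 difference of 1.05 was 0.61 without OUMS23, 0.72 without HUTU80, 1.53 without NCIH716 and 0.18 with the mean of all probe sets. For AXL (-0.34) the values over these alternatives ran from -0.66 without LS513 to -0.013 with the mean of all probe sets. None passed in the settings fitted with limma; the values without LS513 or OUMS23 were not tested. The count of receptors with a single-line high or low was 2, against 1 with a gap of 3 log2 units and 4 with every probe set read on its own. This last alternative, added after the data were seen, brought in FGFR2 in NCIH716 and AXL in RKO. Of 180 values 132 were above background, and 98 with a fixed level of 5, also added later. No paired analysis was possible because each line is 1 array and the labels give no replicate numbers. Signal over background limits RET, most KIT values and the dim FGFR1 and FGFR2 probe sets, where the order of lines under 3.83 carries no meaning.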
